A study of Mus musculus with 6 samples.

Results

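FGF receptors and the feedback genes of the Erk pathway were described in cells of the mouse striatum by single-cell RNA sequencing. The 10 genes were listed by name, 3 receptors (Fgfr1, Fgfr2 and Fgfr3), the ligand gene Fgf1, 3 Sprouty genes (Spry1, Spry2 and Spry4), the transcription factor genes Etv4 and Etv5 and the phosphatase gene Dusp6, and all 10 were found among the 32285 genes of the deposited count table. Cells came from wild-type male C57BL/6 mice at postnatal day 3 (P3; 3 libraries) and at 3 months (3m; 3 libraries), with no treatment, transgene or deletion in either group. They were enriched with magnetic beads for ACSA2, a surface antigen of astrocytes, and sequenced with 10x Genomics 3′ chemistry, which counts molecules as UMIs at the 3′ end of transcripts. By the study's methods each preparation pooled the brains of several animals, so that a library is a pool and the spread between libraries is that between pools, and the sort decides which cells of the tissue were sampled.

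FGF receptors are tyrosine kinases of the cell surface. Once a ligand binds, adaptors such as Frs2 pass the signal through Ras, Raf and Mek to the kinase Erk, and Etv4 and Etv5 are ETS-family transcription factors that are induced by this route in many tissues. Sprouty proteins dampen the route upstream of Erk and the Dusp6 phosphatase removes phosphate from Erk itself, and since both are induced by Erk they are known as feedback genes. In the brain Fgfr3 is known as a gene of the astrocyte lineage and Fgfr2 as a gene of both astrocytes and oligodendrocytes. Transcript levels do not measure the activity of the kinases.

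Of the 16690 barcodes, 14373 passed the cell filter and carried the study's cluster names, and of these 1118 cells at 3m and 8874 at P3 were astroglial. UMIs of the astroglial cells were summed per library, which gave 1157485 to 1843998 in the 3m libraries and 22327104 to 30617140 in those of P3. A median of 3631 UMIs was counted per astroglial cell at 3m and of 7307 at P3. Levels below are CPM (UMIs per 1000000 UMIs of the same sum), and they are compared between cells or ages for 1 gene at a time. A total of 28 barcode sequences of annotated cells occurred in more than 1 library. The authors chose the astroglial clusters by Sox9 and other astrocyte markers, so that marker levels describe the label and do not test it. A list of 7 such markers, Sox9 among them, had a summed level of 14676 to 15411 CPM at 3m and of 23786 to 28961 CPM at P3 by library. All 7 were also detected in 3m oligodendrocytes, at a summed 582 CPM. A list of 7 oligodendrocyte markers was at 710 to 1872 CPM in the 3m astroglial libraries.

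Gene positions were read from GENCODE M21 on GRCm38, the assembly also called mm10. Fgfr3 spans chr5:33721674-33737068 on the plus strand, Fgfr1 chr8:25513654-25575718 on the plus strand, Etv4 chr11:101769742-101785371 on the minus strand and Etv5 chr16:22381309-22439719 on the minus strand. No other gene of that annotation overlaps them on the same strand. Fgfr2 is an exception, since its annotated span on chromosome 7 overlaps 36 other gene models on the same strand. Whether the authors' reference held this model is not given in the sources used here. Spry1, Spry2 and Dusp6 are short genes whose promoters were taken from RefSeq (GRCm38.p6), 250 bases each. The promoters are shown because ETS-family factors such as Etv4 and Etv5 recognise sites with a GGAA or GGAT core. Of such sites only the longer form GGAAG, or CTTCC on the other strand, was searched (matches in capitals).
Spry1, chr3:37639697-37639946, plus strand, just before the annotated start of the gene at 37639947: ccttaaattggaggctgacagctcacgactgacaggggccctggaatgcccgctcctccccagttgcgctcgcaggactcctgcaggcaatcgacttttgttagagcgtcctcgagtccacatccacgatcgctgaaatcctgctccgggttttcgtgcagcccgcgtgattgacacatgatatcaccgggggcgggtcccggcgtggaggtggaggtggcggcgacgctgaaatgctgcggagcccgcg
Spry2, chr14:105896820-105897069, minus strand, just before the start at 105896819: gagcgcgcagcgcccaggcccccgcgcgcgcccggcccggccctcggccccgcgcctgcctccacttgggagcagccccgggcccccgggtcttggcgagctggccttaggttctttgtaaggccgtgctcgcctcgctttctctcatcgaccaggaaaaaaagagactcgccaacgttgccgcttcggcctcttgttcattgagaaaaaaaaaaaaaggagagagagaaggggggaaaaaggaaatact
Dusp6, chr10:99262981-99263230, plus strand, just before the start at 99263231: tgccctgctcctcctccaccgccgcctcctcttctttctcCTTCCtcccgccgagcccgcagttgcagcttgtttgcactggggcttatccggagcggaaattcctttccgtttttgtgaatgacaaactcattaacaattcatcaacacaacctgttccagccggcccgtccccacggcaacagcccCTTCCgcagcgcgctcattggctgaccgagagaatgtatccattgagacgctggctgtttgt
The Dusp6 promoter held 2 matches of this form and those of Spry1 and Spry2 held 0, although the shorter GGAA occurs in both of the latter. The searched form was found in 64.1% of all 32851 promoters of this length, so a match is a description of the letters and not of binding.

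The first comparison asked how the genes differed between immature astroglia at P3 and mature astroglia at 3m. The ligand gene Fgf1 and the receptor gene Fgfr3 were higher at 3m and the feedback gene Spry1 and the transcription factor gene Etv4 were lower, and these 4 of 10 genes were called (edgeR's quasi-likelihood test on summed UMIs, with p adjusted over all genes tested; a call needs 0.05 or less and a log2 change of 1 or more in size). Of all 13530 genes tested, 32.1% were called, 15.8% as higher and 16.3% as lower, so that 49.3% of the calls were higher (38.6% without scaling). Calls were thus common among all genes, and the count for these 10 stood near that background. With no limit on the fold, 7 of the 10 genes passed on adjusted p against 48.9% of all genes. All 10 genes passed the filter on low counts.

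Among the receptors, Fgfr3 was measured at 302, 267 and 322 CPM in the 3m libraries and at 121.0, 86.1 and 95.2 CPM in the P3 libraries. Every 3m library was above every P3 library, and the level was higher by 1.75 ± 0.18 (log2, SE; adjusted p = 4.35e-06, edgeR). Fgfr1 was at 124, 90.0 and 89.0 CPM at 3m and at 66.6, 55.6 and 59.9 CPM at P3. The ages did not overlap here either, yet the change of 0.91 ± 0.17 (log2, SE; adjusted p = 0.000587, edgeR) stayed under the limit set on the fold. Fgfr2 was at 63.9, 59.7 and 58.4 CPM at 3m and at 44.4, 39.9 and 40.2 CPM at P3, again with no overlap and with a change of 0.74 ± 0.15 (log2, SE; adjusted p = 0.00158, edgeR) that was under the limit on the fold. Fgfr4, the remaining FGF receptor kinase, was listed at 0 UMIs at 3m and at a mean of 0.0299 CPM at P3.

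Fgf1 encodes an FGF that lacks a classical secretion signal and binds all FGF receptors. It was at 64.8, 66.7 and 67.9 CPM at 3m and at 16.6, 12.7 and 14.4 CPM at P3. The 3m libraries lay close together and far above those of P3, with a change of 2.39 ± 0.16 (log2, SE; adjusted p = 1.33e-07, edgeR).

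Spry1 was close to 0 at 3m. No UMI was counted in 3m replicates 1 and 3, where 3 UMIs would have stood for 2.59 and 2.04 CPM, and 5 UMIs (2.71 CPM) were counted in 3m replicate 2, whereas the P3 libraries held 38.9, 38.3 and 34.0 CPM. The change was -4.86 ± 0.48 (log2, SE; adjusted p = 3.62e-06, edgeR), and over all libraries the P3 level was 33.2 times that at 3m (95% interval 14.2 to 102, for counting error only). The other Sprouty genes behaved otherwise. Spry2 was at 86.4, 190 and 115 CPM at 3m and at 159.6, 255 and 288 CPM at P3, so that 3m replicate 2 lay above P3 replicate 1 and the groups overlapped. Its change of -0.64 ± 0.28 (log2, SE; adjusted p = 0.0775, edgeR) did not pass the test, and without 3m replicate 2 it was called at -1.08. Spry4 was at 6.05, 7.05 and 8.15 CPM at 3m and at 15.2, 10.3 and 12.2 CPM at P3. Its libraries did not overlap, and its change of -0.61 ± 0.27 (log2, SE; adjusted p = 0.0782, edgeR) did not pass the test.

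Etv4 was at 24.2, 10.8 and 14.9 CPM at 3m and at 96.8, 70.0 and 77.8 CPM at P3. All 3m libraries were below all P3 libraries and the change was -2.15 ± 0.24 (log2, SE; adjusted p = 1.02e-05, edgeR). With a stricter cell filter (over 1000 genes, under 5% mitochondrial UMIs) the change of Etv4 was -3.79. That filter left 12, 137 and 88 cells in 3m replicates 1, 2 and 3, against 213, 546 and 359, and so few UMIs of Etv4. Etv5, its paralog, was at 39.7, 33.6 and 28.5 CPM at 3m and at 39.8, 37.6 and 34.7 CPM at P3, with overlapping groups and a change of 0.04 ± 0.18 (log2, SE; adjusted p = 0.873, edgeR), whose sign depended on the scaling. Dusp6 was at 22.5, 18.98 and 25.1 CPM at 3m and at 44.3, 34.1 and 34.2 CPM at P3. The groups did not overlap, and the change of -0.57 ± 0.20 (log2, SE; adjusted p = 0.0277, edgeR) passed on p and was under the limit on the fold. It no longer passed on p when 3m replicate 1 or 2 or P3 replicate 1 or 2 was left out, with values between -0.62 and -0.43. In all, the libraries of the ages did not overlap for 8 of the 10 genes, which was also true of 59% of all genes tested.

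**Figure D1:**
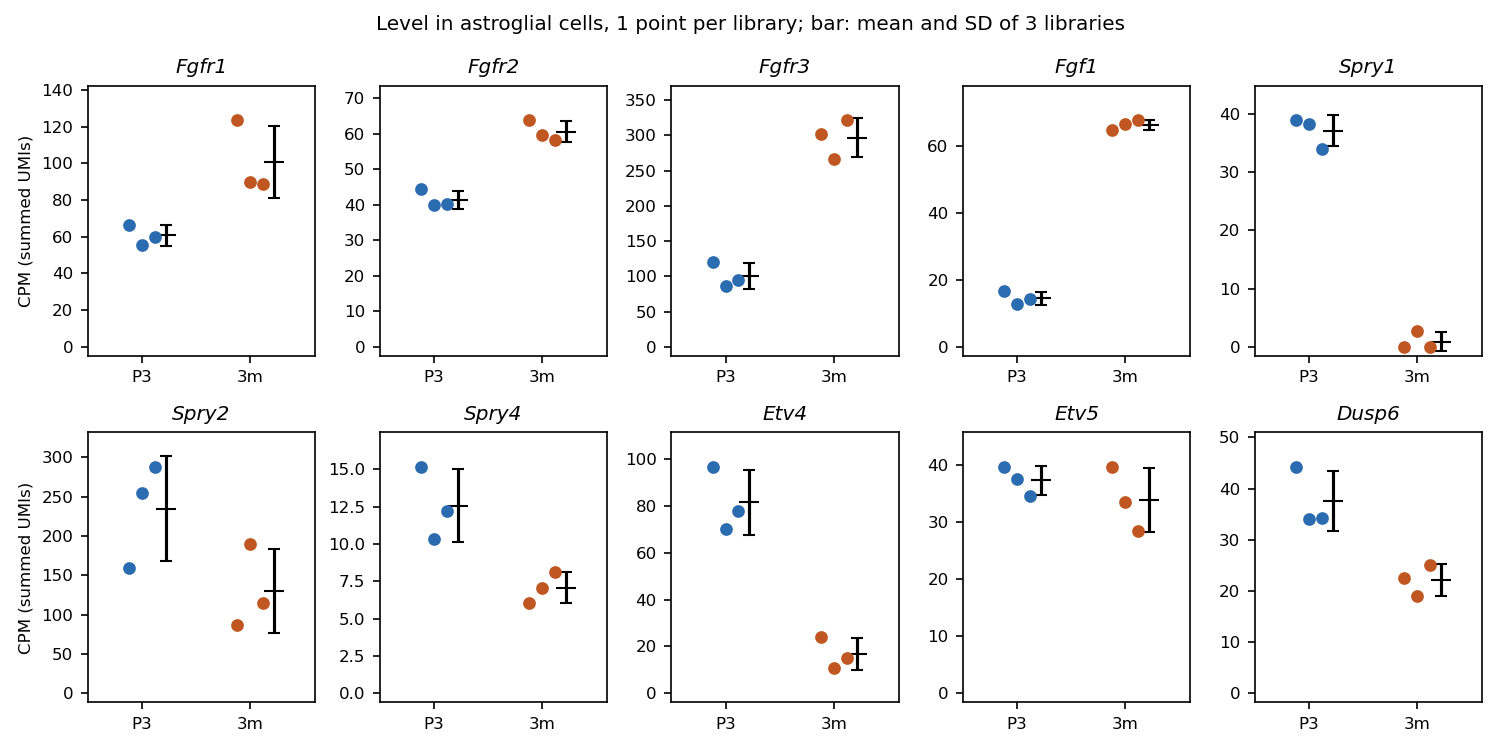
Level of each gene in astroglial cells (CPM of summed UMIs, y axis) in the 3 P3 and 3 3m libraries (points), with mean and SD (bars). Fgfr3 and Fgf1 at 3m lie above all P3 libraries, Spry1 and Etv4 lie below all P3 libraries, and only Spry2 and Etv5 overlap.

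Oligodendrocyte transcripts and immediate early genes moved with age in the same sums. Mbp, a myelin gene of oligodendrocytes, was at a mean of 915 CPM in 3m astroglia and at 1.24 CPM in P3 astroglia, and 13.1% to 26.01% of the 3m cells of a library held a UMI of Mog, Mobp, Mag or Cldn11 against 0.291% to 0.451% at P3. Since 3m oligodendrocytes were high in Fgf1 and Fgfr2 (below), the comparison was repeated without those cells, and the changes of Fgf1 (2.16), Fgfr2 (0.73) and Fgfr3 (1.76) were of nearly the same size. The 9 immediate early genes, which respond to Erk and to the dissociation of tissue, were all called lower at 3m (16.3% of all genes were), where their summed level was 120 to 183 CPM against 3216 to 4074 CPM at P3. Fos was at a mean of 1713 CPM at P3 and of 9.33 CPM at 3m. Their part in the lower level of Spry1, Etv4 and Dusp6 at 3m was not tested.

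At P3 the level of Fos differed between sub-clusters, and that of the feedback genes can be set beside it. In sub-cluster 9, where Fos was highest at 4560 CPM, Etv4 was at 98.0 CPM, Spry1 at 31.9, Spry2 at 355 and Dusp6 at 42.4 CPM. In sub-cluster 11, where Fos was at 735 CPM, Etv4 was at 89.2 CPM, Spry1 at 23.9, Spry2 at 199 and Dusp6 at 23.04 CPM. Between these values of Fos, Etv4 was both high and low. In sub-clusters 1, 2, 4 and 12, with Fos at 1797 to 2143 CPM, it was at 69.9 to 103 CPM, and in sub-clusters 3, 5 and 10, with Fos at 1555 to 2273 CPM, it was at 7.11 to 12.7 CPM. In sub-clusters 0, 6 and 8, with Fos at 920 to 1447 CPM, it was at 87.8 to 95.5 CPM, and in sub-cluster 15, with Fos at 1338 CPM, at 5.77 CPM. The low sub-clusters 3, 5, 10 and 15 are among those that the study grouped with non-telencephalic cells, as are 4 and 12 (below). These are pooled levels of cells that were clustered on the same counts and are given without a test.

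The change with age was also examined after P3 progenitors and sub-cluster 2 had been left out. In telencephalic astrocytes alone (sub-clusters 0, 1, 9 and 11 at P3 against 7 and 14 at 3m, a choice made after the data had been seen), Fgfr3 was higher at 3m by 1.13 and Fgf1 by 1.38 on the log2 scale, both below their values over all astroglia, and Etv4 was lower with a log2 change of -2.34. These 3 genes and Spry1 were called there, too. With cells that held a UMI in at least 2 of Mki67, Top2a and Cdk1 (cycling cells) left out, the changes were 1.66 for Fgfr3, 2.07 for Fgf1 and -2.08 for Etv4.

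Of the other genes of the route, a list of 73 genes, 47 were tested, and 5 were called higher and 10 lower at 3m, a share near the 32.1% of all genes that were called, with a median log2 change of -0.24 against -0.04 over all genes. Among the ligands Fgf2 (1.38; a mean of 9.89 CPM at 3m against 4.55 CPM) and Fgf22 (1.75 CPM at 3m) were called higher, and the other 15 ligand genes of the list did not pass the filter on low counts. Of the 4 other receptors and co-receptors only Fgfrl1, a receptor without a kinase domain, was tested, and it was not called with a change of 0.58 (adjusted p = 0.0446, edgeR). Of 18 adaptors and kinases from Frs2 to Erk, 2 were called, both lower. Negative regulators were called in both directions, since Spred3 was higher (1.06) while Dusp5 (-3.34), a nuclear Erk phosphatase, and Il17rd (-2.16), an inhibitor of FGF signalling, were lower. Of the Erk-responsive genes 5 of 9 tested were called, all lower (of all genes 16.3% were called lower), with Fos, Egr1, the cyclin gene Ccnd1 (-5.43), Myc (-1.39) and Elk3 (-1.73), whereas Etv1, the third gene of the Etv4 family, had means of 42.6 CPM (3m) and 63.5 CPM (P3) and did not pass the test (-0.38). Of the other receptor tyrosine kinases Ntrk2 (1.65) and Pdgfrb (1.52) were called higher and Egfr (-1.03) lower. Spred1 and Spred2, relatives of the Sprouty genes, changed by 0.32 and 0.19 and did not pass the test.

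The second comparison was made within the P3 libraries, between 1312 cycling and 7562 non-cycling astroglial cells. All 3m astroglial cells were non-cycling. Fgf1 was lower in cycling cells and was the only one of the 10 genes called, whereas 17.7% of the 13726 genes tested were called, 9.31% as higher and 8.41% as lower (edgeR with library as a block). On adjusted p alone, 7 of the 10 genes passed against 61.1% of all genes.

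Fgf1 was at 4.85, 3.84 and 3.196 CPM in the cycling cells of P3 replicates 1, 2 and 3 and at 21.1, 16.2 and 18.2 CPM in their non-cycling cells, a difference of -2.11 ± 0.14 (log2, SE; adjusted p = 1.55e-08, edgeR) with the same sign in all 3 libraries. The receptors were lower in cycling cells too, but by less, with -0.52 for Fgfr1 (adjusted p = 2.67e-05), -0.67 for Fgfr2 (adjusted p = 1.08e-05) and -0.39 for Fgfr3 (adjusted p = 0.000165) in the same edgeR fit. Spry1 went the other way. It was at 53.0, 61.9 and 49.1 CPM in cycling cells and at 33.5, 29.1 and 28.9 CPM in non-cycling cells. The difference was 0.95 ± 0.09 (log2, SE; adjusted p = 4.4e-07, edgeR), just under the limit on the fold. It ranged from 0.79 to 1.06 with 1 library left out, and was called at 1.06 without P3 replicate 1. Telencephalic cells were 326 of 335, 456 of 477 and 366 of 500 cycling cells by library. Of non-cycling cells they were 1508 of 1650, 1741 of 2626 and 1471 of 3286. Spry1 was lower outside the telencephalon (below). Within it, P3 progenitors held 54.1 ± 2.8 CPM and P3 telencephalic astrocytes 39.4 ± 2.9 CPM. How much of the difference goes with region is not given here. Etv4 (0.27, adjusted p = 0.00486) and Dusp6 (0.32, adjusted p = 0.00378) passed on p in that edgeR fit with small differences. Neither passed without P3 replicate 2 (log2 differences of 0.16 and 0.20) or in telencephalic sub-clusters alone (0.01 and 0.15), and Spry2 (-0.06), Spry4 (0.03) and Etv5 (0.08) did not pass. Cycling cells were deeper, with a median of 11944.5 to 16713 UMIs per cell by library against 5140.5 to 8966 in non-cycling cells. With each cell thinned to 2000 UMIs the log2 difference of Fgf1 was -2.35, and with the summed libraries thinned to the smallest total it was -2.21, both called.

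**Figure D2:**
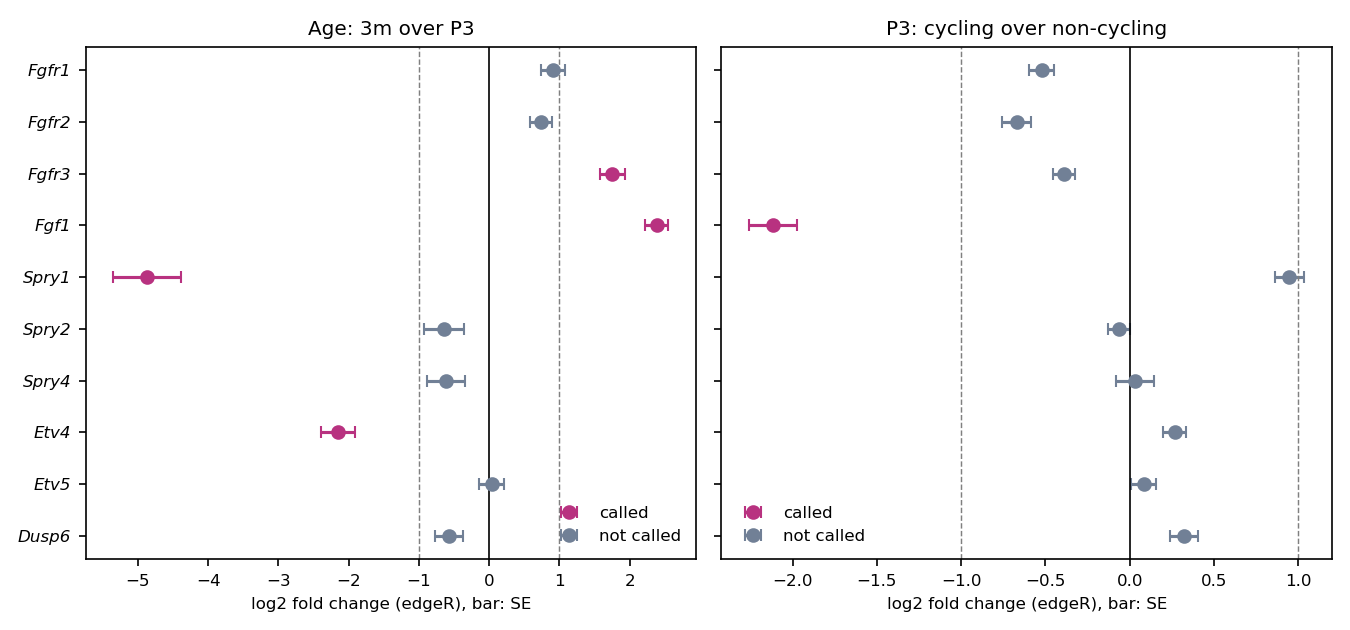
Log2 fold change (x axis) of each gene with its SE, for 3m over P3 astroglia (left) and for cycling over non-cycling P3 astroglia (right); dashed lines mark the limit on the fold and colour marks the genes called. Spry1 and Fgf1 have opposite signs in each panel, and 4 genes are called with age and 1 with cycling state.

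Of the pathway list, 49 genes were tested between cycling and non-cycling cells, of which 3 were called higher and 3 lower (of all genes 17.7% were called), with a median of 0.07 against -0.03 over all genes. Fgf2 was called lower (-1.01), in the same direction as Fgf1, and Dusp4, an Erk phosphatase, was called higher (1.34) from a low level of 0.737 CPM in non-cycling cells. The immediate early genes had 1 of 9 called, Dusp1 (-1.06), with a median of -0.41 over the 9. Fos itself was at a mean of 1302 CPM in cycling and 1864 CPM in non-cycling cells.

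Levels along the study's pseudotime, a score without a unit that runs from progenitors to 3m astrocytes in 20 bins, are given as a description, since it was built from the same counts. The course leads from sub-cluster 6 over 8, 2 and 0 at P3 to 7 and 14 at 3m. At P3 these sub-clusters held 633, 544, 922 and 1830 cells, whereas 5089 P3 cells had a bin, so that cells of other sub-clusters were binned too. In bins 12 and 13 the cells of P3 replicate 3 were shallow, with a median of 4455 and 2240 UMIs against 11016 and 9470 in replicate 1. The part of such cells in the levels below was not tested. P3 cells filled bins 2 to 15 and 3m cells mainly bins 15 to 19, so that bin and age are confounded at the end of the course. In P3 bins 2 to 7 Fgf1 was at 3.07 ± 0.69 CPM (mean and SD of 3 libraries), in bins 11 and 12 at 6.74 ± 0.81 CPM and in bins 13 and 14 at 22.9 ± 1.5 CPM. Fgfr3 was at 77.8 ± 4.7, 73.3 ± 12.5 and 137.5 ± 9.6 CPM in the same stages, and Fgfr1 at 44.3 ± 3.75, 39.2 ± 1.86 and 64.96 ± 0.40 CPM. Thus the receptors and Fgf1 were highest in the last P3 stage, and all 3 libraries of that stage lay above those of all earlier stages. Of the P3 stages it was the nearest to the 3m level, which was 278 ± 48 CPM for Fgfr3 and 54.6 ± 10.9 CPM for Fgf1 in bins 15 to 19. All P3 cells were taken at the same age, so the order of the stages is not an observed course in time.

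Spry1 was highest in between. It was at 53.1 ± 6.0 CPM in bins 2 to 7, at 66.7 ± 5.4 CPM in bins 8 to 10, at 76.4 ± 3.0 CPM in bins 11 and 12 and at 25.7 ± 1.0 CPM in bins 13 and 14, stages whose library ranges did not overlap. The course was not even, since its pooled level was 31.04 CPM in bin 9, 103 CPM in bin 10 and 20.5 CPM in bin 14. At 3m, in bins 15 to 19, it was at 0.342 ± 0.592 CPM. Etv4 did not share this course, with 89.8 ± 6.3 CPM in bins 2 to 7, 94.1 ± 7.7 CPM in bins 8 to 10, 107.0 ± 13.9 CPM in bins 11 and 12, 95.2 ± 14.9 CPM in bins 13 and 14 and 15.1 ± 5.3 CPM at 3m. Its level in the last P3 stage was therefore not as low as at 3m. Dusp6 was at 50.5 ± 5.7 CPM in bins 11 and 12 and at 36.5 ± 3.86 CPM in bins 13 and 14, with no overlap between these stages. Spry2 (209 ± 59 to 272 ± 78 CPM) and Spry4 (11.2 ± 1.97 to 17.5 ± 3.5 CPM) were highest in bins 11 and 12, and for Spry2 all P3 stages overlapped.

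**Figure D3:**
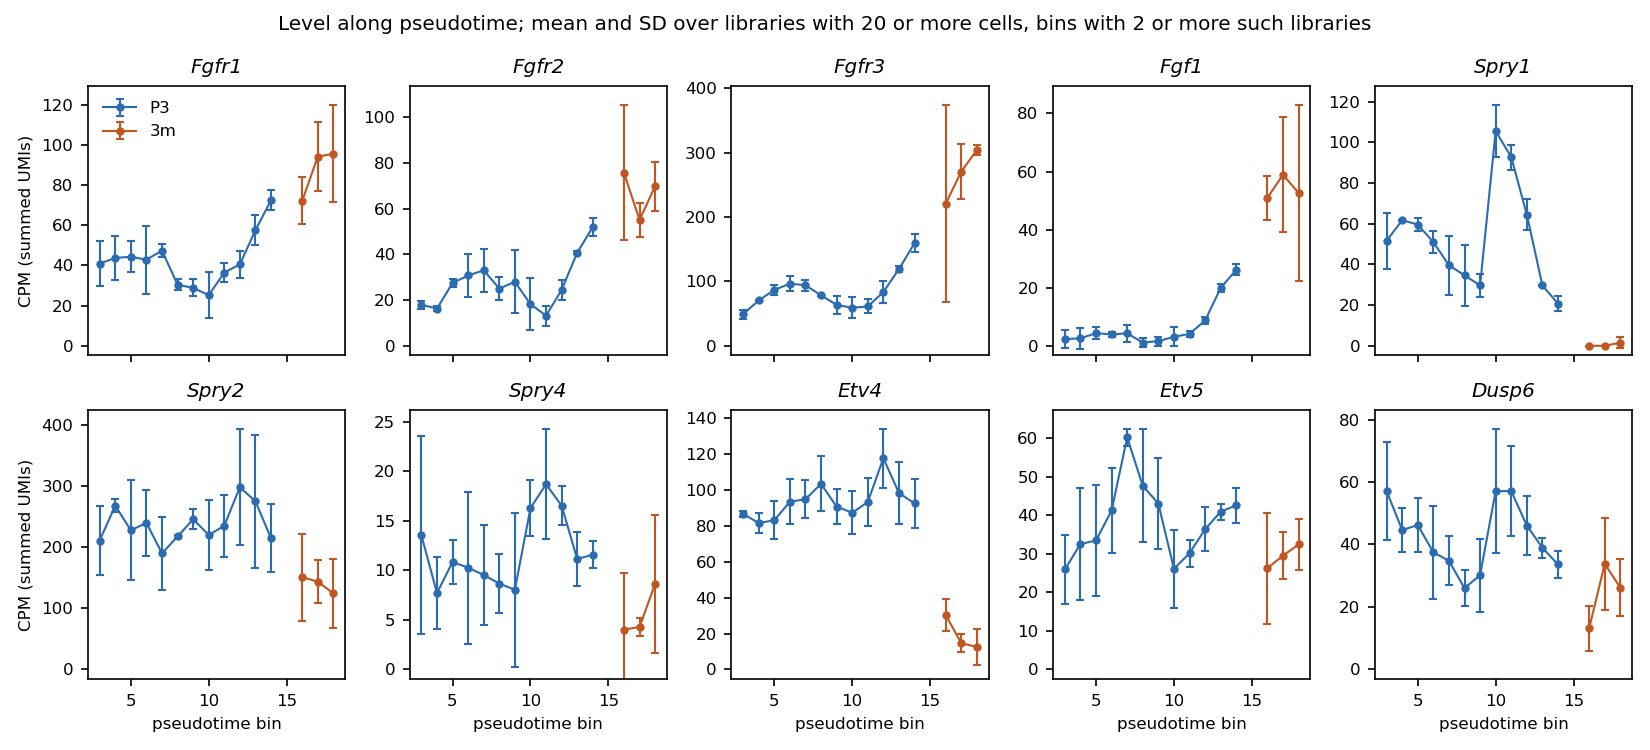
Level of each gene (CPM, y axis) against pseudotime bin (x axis) for P3 and 3m cells; points and bars are the mean and SD over libraries with at least 20 cells, in bins with 2 or more such libraries. Fgf1 and the receptors climb in the last P3 bins, Spry1 peaks at bin 10, and Etv4 is low in the 3m bins and not in the P3 bins drawn.

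In the study, sub-clusters 3, 4, 5, 10, 12, 13, 15 and 16 grouped with non-telencephalic cells of a reference atlas, and it treats an origin in neighbouring brain regions as a possibility. They are called non-telencephalic here, and the remaining sub-clusters (0, 1, 2, 6, 7, 8, 9, 11 and 14), of which the study places 0, 1, 9 and 11 beside telencephalic reference cells, are called telencephalic. In the summed P3 cells Spry1, Etv4 and Dusp6 were lower outside the telencephalon in every library. Spry1 was at 41.0, 46.9 and 43.7 CPM in the telencephalic cells of P3 replicates 1, 2 and 3 and at 2.51, 3.90 and 10.7 CPM in the other cells. Etv4 was at 102, 84.2 and 101 CPM against 5.02, 13.5 and 21.3 CPM, and Dusp6 at 46.2, 39.5 and 38.9 CPM against 10.9, 12.8 and 22.9 CPM. Fgfr3 had the same order, with 125, 101 and 117 CPM against 43.5, 25.9 and 42.8 CPM, whereas Fgfr2 was lower in the telencephalic cells, with 42.4, 33.9 and 32.2 CPM against 81.1, 63.6 and 59.5 CPM. None of these groups overlapped. The highest values of Spry1, Etv4 and Dusp6 outside the telencephalon were those of P3 replicate 3, which held 992 cells of sub-clusters 4 and 12 (12 and 14 in the other P3 libraries), shallow sub-clusters with a median of 1048 and 986 UMIs per cell. These did not share the low levels, with Spry1 at 45.1 and 55.4 CPM, Etv4 at 74.8 and 69.9 CPM and Dusp6 at 69.4 and 130 CPM (pooled), the last above the pooled level of every telencephalic sub-cluster (at most 50.2 CPM).

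The change with age was set against region in 1 fit (edgeR, region by age with library as a block, added after the data had been seen). It differed between regions for 6 of the 8 genes that had at least 10 UMIs in each group (adjusted p of at most 0.05). Of the 10846 genes tested, 21.9% differed, a share taken without that rule on UMIs and so not like for like. Without 3m replicate 2 the change differed for 3 of the 8 genes. That library held 261 of the 328 cells of the other regions at 3m, and 3m replicate 1 held 17. Sub-clusters were made from these counts, so that the groups are not independent of the genes compared.

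Fgfr3 rose within both regions, by 1.46 on the log2 scale in telencephalic cells and by 3.54 in the others when each region was fitted alone, and the difference between regions was 2.01 ± 0.20 (log2, SE; adjusted p = 2.6e-07, edgeR). At 3m it was at 304, 224 and 307 CPM in telencephalic cells and at 277, 315 and 404 CPM in the others, so that the regions, which were apart at P3, overlapped. Fgf1 rose by 2.03 and 3.61, with a difference of 1.52 ± 0.29 (log2, SE; adjusted p = 0.000612, edgeR) that did not pass without 3m replicate 2. Etv4 fell by 2.40 on the log2 scale in telencephalic cells. In the sum of the other cells it had 32.6, 10.3 and 26.04 CPM at 3m with a change of 0.36 that did not pass, and the difference between regions was 2.95 ± 0.68 (log2, SE; adjusted p = 0.00321, edgeR). Fgfr2 changed by 0.99 in telencephalic cells and by -0.04 in the others, with a difference of -1.23 ± 0.24 (log2, SE; adjusted p = 0.000776, edgeR). Fgfr1 (-0.74, adjusted p = 0.0122) and Etv5 (1.03, adjusted p = 0.034) differed as well in that edgeR fit, neither of them without 3m replicate 2 and Fgfr1 also not without P3 replicate 3 (-0.63) or without cells that held an oligodendrocyte UMI (-0.42). Dusp6 did not pass, nor did Spry2, which passed without P3 replicate 3 (0.61) and without sub-clusters 4, 12 and 16 (0.70). For Spry1 1 UMI at 3m was counted in telencephalic cells and 4 in the others, too few for a difference between regions. In the other cells Spry1 was at 0, 4.57 and 0 CPM in 3m replicates 1, 2 and 3. The P3 libraries held 2.51, 3.90 and 10.7 CPM there, so that the ages overlapped outside the telencephalon.

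The cells of the other regions also held more oligodendrocyte RNA at 3m, with Mbp at 16915, 2524 and 2005 CPM in replicates 1, 2 and 3 against 61.1 to 206 CPM in telencephalic cells. In the single sub-cluster 16 Mbp was at 12189 CPM and Fgfr3 at 88.5 CPM, and in sub-cluster 13 Mbp was at 753 CPM and Fgfr3 at 402 CPM. With sub-clusters 4, 12 and 16 left out, and with all cells holding an oligodendrocyte UMI left out, the differences of Fgfr2, Fgfr3, Fgf1 and Etv4 between regions still passed. The 3m sums of the other regions were then small, with 3, 172 and 31 cells in replicates 1, 2 and 3 in the former fit. In the latter they held 1, 140 and 26 cells, so that both fits rest mainly on 3m replicate 2. Etv4 had 17 UMIs in this group before any cells were left out.

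**Figure D4:**
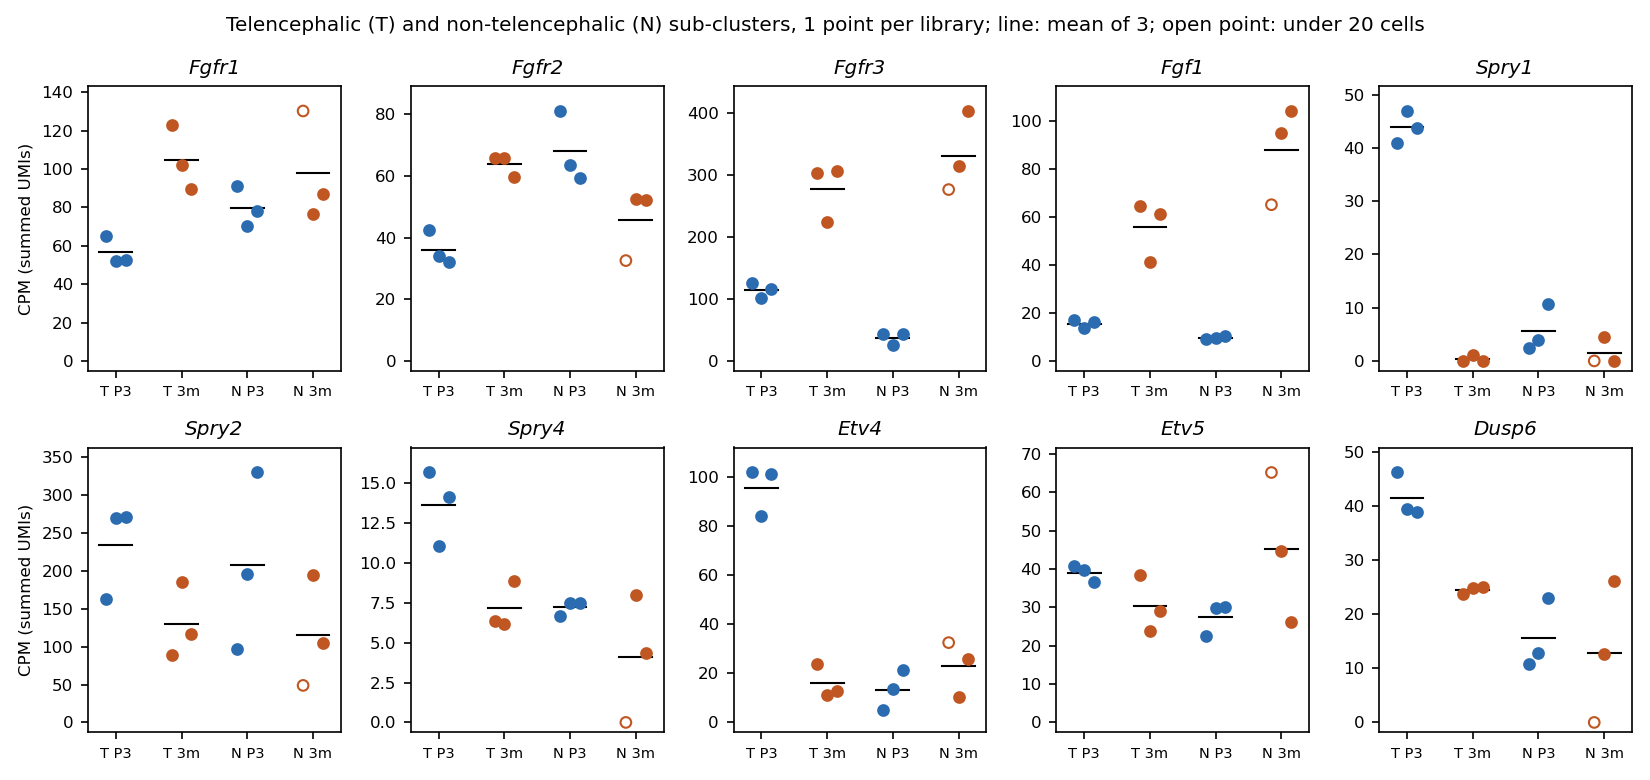
Level of each gene (CPM, y axis) in telencephalic (T) and non-telencephalic (N) astroglia at P3 and 3m; 1 point per library, a line at the mean of 3, and an open point where a library held under 20 cells. Fgfr3 is apart between regions at P3 and overlaps at 3m, and Spry1, Etv4 and Dusp6 stand out in telencephalic P3 cells.

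Levels were then compared across the cell types of the preparation, as means over libraries with at least 20 cells, with no test since cells were clustered on the same genes. Classes with 2 or more such libraries are ranked, and P3 endothelial cluster 12 (346 cells of P3 replicate 3, with a median of 1252.5 UMIs per cell) and P3 cluster 23 (27 cells of P3 replicate 2), with 1 such library each, are given apart. Fgfr3 was highest in 3m astrocytes, at 359 ± 63 CPM outside the telencephalon (n = 2) and 278 ± 47 CPM in telencephalic cells (n = 3), ranges that did not overlap as long as 3m replicate 1, with 17 cells outside the telencephalon, was left out as here. It was at 128 ± 13 CPM in P3 telencephalic astrocytes and at 83.7 ± 8.55 CPM in progenitors (sub-clusters 6 and 8). In 3m oligodendrocytes it was at 6.34 ± 3.81 CPM and in endothelial cluster 7 at 0.851 ± 0.579 CPM. Among the ranked classes the astroglia were thus above the other types, with the exception of P3 non-telencephalic astrocytes (37.4 ± 10.0 CPM), which overlapped with endothelial cluster 13 and with cluster 21. In P3 endothelial cluster 12 Fgfr3 was at 54.5 CPM.

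Fgfr2 had another order. It was highest in 3m oligodendrocytes, at 247, 240.2 and 239.7 CPM by library, above every astroglial class, of which P3 non-telencephalic astrocytes were the highest with 68.1 ± 11.5 CPM. In P3 oligodendrocyte precursors it was at 2.33 ± 3.29 CPM (n = 2). Fgf1 was likewise high in 3m oligodendrocytes, at 61.5 ± 7.0 CPM, a range that overlapped with that of 3m telencephalic astrocytes (55.7 ± 12.7 CPM), while 0 UMIs were counted in the precursors. Fgfr1 was low in oligodendrocytes (4.49 ± 1.13 CPM), and its highest levels among the ranked classes were those of the unidentified 3m cluster 21 (116 ± 37 CPM) and of 3m telencephalic astrocytes (105 ± 17 CPM), which overlapped. In the single library of P3 cluster 23 it was higher, at 196 CPM.

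Spry1 and Spry4 were highest outside the astroglia. Spry1 was at 257 ± 48 CPM in P3 pericytes and at 169 ± 4.55 CPM in P3 oligodendrocyte precursors (n = 2), ranges that did not overlap, and at 129 ± 33 CPM in cluster 21, whose leading marker list was that of pericytes and mural cells. Spry4 was at 72.4 ± 7.95 CPM in P3 pericytes and at 63.8 ± 50.4 CPM in cluster 21, which overlapped. The low Spry1 of 3m astroglia (0.344 to 2.29 CPM) was thus not a feature of all 3m cells, since 3m endothelial cluster 17 held 34.9 ± 8.3 CPM and 3m oligodendrocytes 9.69 ± 1.62 CPM. Spry2 was at 848 CPM in the single library of P3 endothelial cluster 12. It was at 245 ± 68 CPM in P3 telencephalic astrocytes and overlapped with all other P3 astroglial classes, and in the shallow sub-clusters 4 and 12 its pooled level was 905 and 773 CPM, while no other sub-cluster was above 355 CPM. Without these and sub-cluster 16 the change of Spry2 with age was -0.52.

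Etv4 was highest in P3 telencephalic astrocytes (97.6 ± 11.7 CPM) and progenitors (91.8 ± 6.9 CPM), which overlapped, and next in P3 oligodendrocyte precursors (57.4 ± 17.6 CPM, n = 2), with 62.6 CPM in the single library of P3 endothelial cluster 12. No UMI of it was counted in 3m cluster 17 or cluster 21. Etv5 was at 44.6 ± 9.3 CPM in the precursors and overlapped there with telencephalic astrocytes of both ages. Dusp6 was highest in 3m microglia, at 223 ± 36 CPM (n = 2), although 3m replicate 3, left out with 17 cells, held 37.5 CPM. It was at 157 CPM in the single library of P3 endothelial cluster 12 and at 111 ± 25 CPM in P3 microglia, the latter overlapping with endothelial clusters 13 (107 ± 100.1 CPM, n = 2) and 7 (107 ± 3.82 CPM), while 3m oligodendrocytes held 0.564 ± 0.158 CPM. Names were checked against marker lists, and in endothelial clusters 12 and 13, the precursors and cluster 20 the summed astroglial list was above every other list of cell types apart from red blood cells, and its part in their values was not tested.

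**Figure D5:**
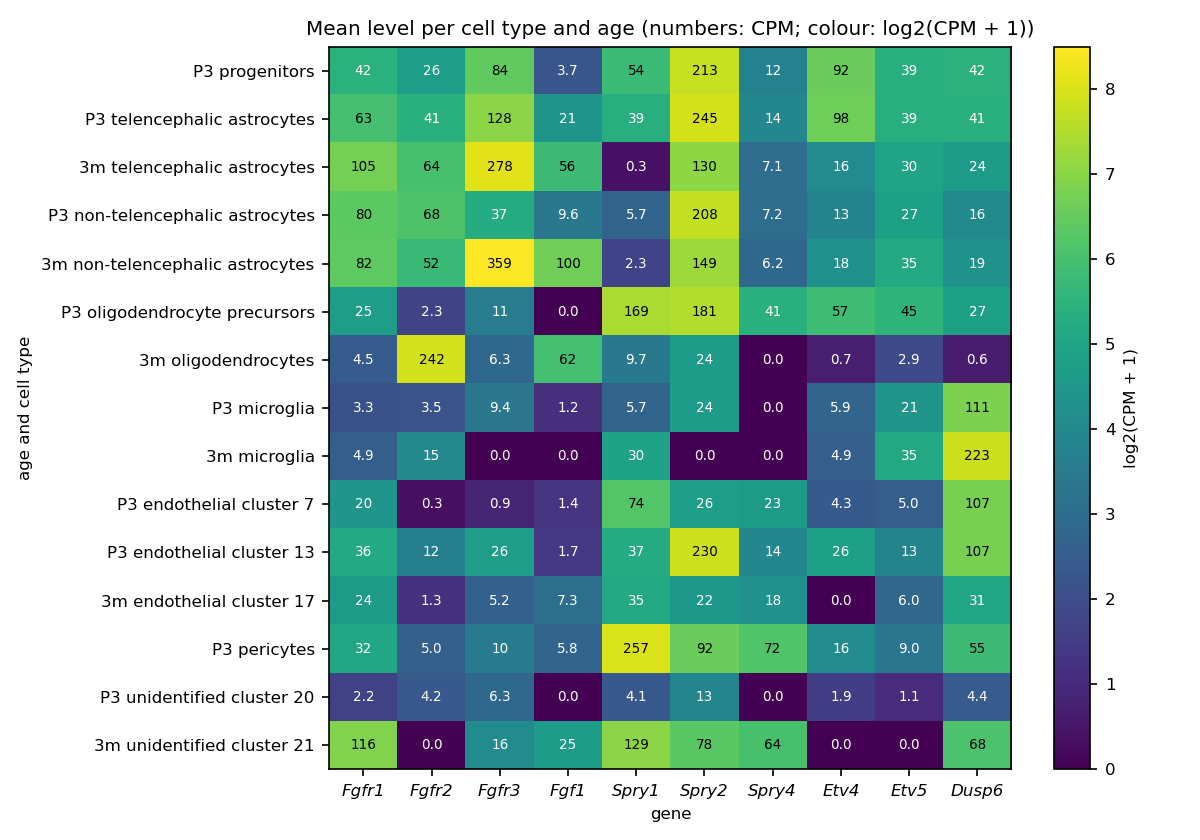
Mean CPM (numbers) and log2(CPM + 1) (colour) of each gene (x axis) in the 15 cell type and age classes with 2 or more libraries of at least 20 cells (y axis). Fgfr3 is brightest in astroglia, Fgfr2 in 3m oligodendrocytes, Spry1 in P3 pericytes and precursors, and Dusp6 in 3m microglia.

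The share of cells with a UMI followed the levels. After each astroglial cell had been thinned to 2000 UMIs, which left out 212 shallower cells at 3m and 1113 at P3, Fgfr3 was detected in 43.5% ± 5.5 of cells at 3m and in 17.5% ± 3.5 at P3 (SD, n = 3). Without thinning the shares were 60.8% and 48.1%. As a background, Fgfr3 was found in 0 of 60 microglia at 3m, which allows a share of cells with a UMI of up to 5% (3 counts of the total), and in 6 of 124 at P3, 4.84% (95% Clopper-Pearson interval 1.80 to 10.2), at a median of 3940 and 6223 UMIs per cell. Etv4 was detected in 3.22% ± 1.1 of thinned cells at 3m and in 13.2% ± 2.7 at P3. Without thinning the shares were 6.74% and 41.6%, against 1.67% and 3.23% of microglia, which were not thinned either. The unthinned 3m share lay within the interval of 3m microglia (95% Clopper-Pearson interval 0.0422 to 8.94). That interval is wide, since it rests on 1 of 60 cells. Of the thinned cells 58.7% ± 4.9 at 3m and 33.4% ± 3.2 at P3 held a UMI of at least 1 of Fgfr1, Fgfr2 and Fgfr3.

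Genes with a like pattern were sought by Pearson correlation of log2(CPM + 1) over 15 cell type and age classes among 12277 genes. The classes share libraries, so the values are descriptions. Fgfr3 was most like Acsbg1 (r = 0.967), Aqp4 (0.966), the water channel of astrocytes, and Slc4a4 (0.965), a bicarbonate transporter. Fgfr1 was most like Gpc6 (0.946), Fgfr2 like Tmem229a (0.921) and Fgf1 like Trpm3 (0.917). Spry4 was most like Rasl11a (0.980), Spry2 like Tex9 (0.969), Spry1 like Mdp1 (0.870), Etv4 like Car8 (0.946), Etv5 like Sap30 (0.911) and Dusp6 like Slc29a1 (0.927). No member of the 10 was among the 3 genes most like another.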

How the data were processed

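Libraries were grouped by age from the sample labels, 3 at P3 and 3 at 3m. For the deposited UMI counts the authors aligned reads to mm10, counted UMIs per gene with Cell Ranger and merged the libraries without normalization. The deposited cell table held the authors' cluster names, astroglial sub-clusters and bins, and a pseudotime score that the authors computed with Slingshot. Per the labels, the authors' notes also name Seurat 3.1.1. The filter of the authors (over 500 genes, under 10% mitochondrial UMIs) was applied and left the 14373 annotated cells. Doublets were not removed. UMIs were summed per library, since cells are not replicates, and tested with edgeR 4.0.16 in R 4.3.3 (quasi-likelihood, two-sided, TMM scaling, filterByExpr, Benjamini-Hochberg over all genes tested). Calls needed an adjusted p of 0.05 or less together with a log2 change of 1 or more in either direction. SE is the absolute log2 fold change divided by the square root of F. CPM are UMIs per 1000000 in a sum, and means need at least 20 cells per library. Depth ranged from 5471573 to 37795021 UMIs per library, and floors of 3 UMIs and 95% intervals cover counting error only. DESeq2 1.42.0, other scalings, filters and cell sets were alternatives. The script was tested on simulated data with known changes. The 10 genes and all lists were chosen with earlier results of these data known. Named genes were the 10, pathway genes called or set beside a gene of the same kind, early genes and markers set beside a value, and the 3 genes most like each by correlation. Values of single genes among the adaptors and kinases are not reported here.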

Additional observations from a re-analysis of the deposited data

Results flagged for a closer look

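The change with age differed between telencephalic astroglia and astroglia of other regions for 6 genes, in the edgeR test of region by age. The difference (other regions minus telencephalon, log2) was -0.74 for Fgfr1, -1.23 for Fgfr2, 2.01 for Fgfr3, 1.52 for Fgf1, 2.95 for Etv4 and 1.03 for Etv5. Fgfr2, Fgfr3 and Etv4 kept it whichever library was left out, whereas Fgf1, Etv5 and Fgfr1 did not pass without 3m replicate 2, nor did Fgfr1 without P3 replicate 3. The libraries of the regions were apart for Etv4 and Fgfr3 at P3 and overlapped at 3m.

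Barcodes that failed the cell filter, which enter no comparison above, also held UMIs of these genes beyond the limit that a count of 0 allows. The 1545 such barcodes at 3m, 1461 of them with at least 10% mitochondrial UMIs, held 415 UMIs of Fgfr1, 550 of Fgfr2, 1586 of Fgfr3, 390 of Fgf1, 14 of Spry1, 387 of Spry2, 31 of Spry4, 93 of Etv4, 188 of Etv5 and 78 of Dusp6. Set beside the pooled 3m astroglia that were kept, they held Fgfr3 at 285 against 294 CPM, Fgf1 at 70.2 against 66.6 CPM and Etv4 at 16.7 against 15.6 CPM, but Fgfr1 at 74.7 against 98.3 CPM, Fgfr2 at 99.0 against 60.3 CPM, Spry1 at 2.52 against 1.12 CPM, Spry2 at 69.7 against 138 CPM and Mbp at 2233 against 944 CPM. These barcodes carry no cluster name and can be of any cell type. All kept 3m cells together, of every type, held Fgfr3 at 79.5 CPM, Fgfr1 at 32.6, Fgfr2 at 171, Fgf1 at 57.7, Spry1 at 12.4, Spry2 at 52.9, Etv4 at 4.83 and Mbp at 3274 CPM. In 3m replicate 1 852 of 1653 barcodes failed the filter. The share of astroglia among the barcodes that failed was not tested. The 772 such barcodes at P3, 706 of them with at most 500 genes, held 33 UMIs of Fgfr1, 9 of Fgfr2, 73 of Fgfr3, 4 of Fgf1, 22 of Spry1, 303 of Spry2, 16 of Spry4, 32 of Etv4, 25 of Etv5 and 31 of Dusp6.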

How the results depend on the processing

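Fgfr3, Fgf1, Spry1 and Etv4 were called with age under every alternative in which they were tested, apart from Etv4 outside the telencephalon. Spry1 and Spry4 were not tested there for low counts. Over sub-clusters outside the telencephalon only, 2 of the 10 genes and 2603 genes in all were called, against 4 and 4344, and Fgfr2 (-0.0395), Etv4 (0.36) and Dusp6 (0.20) turned their sign. With columns thinned to the smallest total 2716 genes were called. Leaving out 1 library gave 4 to 5 genes and 3234 to 4257 in all. The sign of the change of Etv5 turned without scaling (-0.15), without the filter on low counts (-0.081), in telencephalic sub-clusters (-0.18), in their non-progenitor part (-0.22) and without 3m replicate 1 or 2, in a range of -0.11 to 0.13 over libraries left out. Fgfr1 was called in telencephalic sub-clusters and with thinned columns, both at 1.07. Without scaling the median of all genes moved from -0.04 to -0.24 and the share of calls that were higher from 49.3% to 38.6%. The causes were not tested.

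Between cycling and non-cycling cells, 1 to 2 of the 10 genes were called when 1 library was left out, and Fgf1 was called under every alternative run. Spry4 turned its sign without scaling (-0.061), without the filter (-0.012), in telencephalic sub-clusters (-0.073) and in cells thinned to 2000 UMIs (-0.079), Etv5 without scaling (-0.013) and in thinned cells (-0.032), and Spry2 in thinned cells (0.024) and without P3 replicate 3 (-0.14 to 0.040 over libraries left out). With no replicate block 2040 genes were called against 2432, and the call of Fgf1 was the same.

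Between regions, leaving out 1 library gave 3 to 6 of the 8 genes and 1311 to 2432 in all, and Spry2 turned its sign without 3m replicate 2 (-0.13 to 0.61 over libraries left out). The lowest counts were those without 3m replicate 2. Among the cell sets, Fgfr1 did not pass without cells that held an oligodendrocyte UMI (-0.42).

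Whether same-numbered libraries of the ages shared a preparation is not given in the sources used here. Deviations of same-numbered libraries from the mean of their age correlated at 0.206, 0.0993 and 0.0390, and 3m replicates 2 and 3 correlated better with another number. With 3 libraries per age these values cannot decide on a pairing. The fit with a replicate block called the same 4 genes and 4563 genes in all. At 3m the small sums limited low genes such as Spry1 and Spry4. Alternatives that left out sub-clusters 4, 12 and 16, the non-progenitor part, and all fits by region were chosen after seeing the data.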
